A study of Mus musculus with 18 samples.

Results

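Embryoid bodies grown with doxycycline (DOX) from i-Mixl1 mouse embryonic stem cells were compared at day 3 and at day 2 of differentiation, with 3 samples a day. These are 6 of the 18 samples of the series, and they were chosen by their day and treatment labels. The day 3 DOX group holds i-Mixl1 cells with DOX at 0.1 ug/ml, harvested at day 3, and the day 2 DOX group the same cells and dose, harvested at day 2. DOX went in 1 day after plating, so both groups carried it, for a longer time at day 3. The 3 day 3 control and 3 day 2 control samples were i-Mixl1 cells without DOX, and 3 DOX samples of day 4 entered the estimate of the spread. All samples come from a single cell line, the series design calls the 3 samples of a group biological replicates, and RNA was taken from whole embryoid bodies. The line is named for Mixl1, a homeobox gene of the primitive streak. No probe was named Mixl1, so its own level was not analysed here.

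Embryoid bodies are aggregates of pluripotent cells that differentiate together once the factors that hold them in the stem cell state are withdrawn. They first shut down genes of the preimplantation embryo and of the naive pluripotent state, pass through a state like the epiblast of the implanted embryo, and then activate the genes of the primitive streak. In the embryo the streak forms under Nodal, Wnt and BMP signals, and cells that leave it become mesoderm and endoderm, with an exchange of cadherins on the way. Eomes is an early factor of that step, and Gata4, Hand1 and Mesp2 mark mesoderm or endoderm that arises from it.

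RNA was amplified in 1 linear round and hybridised to spotted mouse cDNA arrays, 3 a day, and every array paired DOX with control RNA from 1 day in 2 colours. Values are normalized intensities of the red channel, which the deposited value table assigns to the DOX samples. The dye labels put DOX in the green channel, so the channel of the DOX samples is not settled. If the labels hold, the values called DOX below are the controls' and the values called control are those of DOX, and every difference between DOX and control turns its sign. Each day had its own 3 arrays, so day and array set cannot be told apart. The median raw intensity of a sample was 209 to 405 at day 3 and 302 to 466 at day 2, and 54.3 to 61.6% of gene probes at day 3 against 58.7 to 63.2% at day 2 reached a signal-to-noise ratio of 1.4. Across probes, samples of day 3 correlated with each other at 0.962 to 0.969, samples of day 2 at 0.981 to 0.984, and samples of different days at 0.966 to 0.977. The day 3 samples were thus no more alike among themselves than across days, and the median SD of a probe on the log2 scale was 0.279 at day 3 and 0.206 at day 2.

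The samples carried high signal of embryonic stem cell markers on both days. Pou5f1, which encodes the pluripotency factor Oct4, read 4857, 5739 and 4154 in the day 3 DOX samples, against 5721, 4444 and 7569 in the day 2 DOX samples. The groups overlapped, with a log2 difference of -0.24 ± 0.22 (limma SE, n = 3 each, adjusted p = 0.865). Epcam, an adhesion molecule of pluripotent and epithelial cells, read 3990 to 4798 at day 3 and 4094 to 4743 at day 2. Of the 10 stem cell markers, 6 had a probe, and their summed intensity was 24990 to 27240 at day 3 and 32850 to 33970 at day 2. Cdh1 among them, and the streak gene T (brachyury), were not well above background on any array of either day. The Cdh1 clone was noted as giving no PCR product. Of 6 fibroblast feeder markers 2 had a probe, with sums of 234 to 469 at day 3 and 385 to 533 at day 2, and Dcn, one of them, was not well above background on any array. The 3 extraembryonic endoderm markers with a probe summed to 993 to 1275 at day 3 and 1144 to 1340 at day 2. The embryonic globins Hbb-y and Hba-x were not well above background on either day. The part of other cell types in the results below was not tested. In such bulk RNA, fewer cells of a type and less RNA per cell cannot be told apart.

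Of 15246 gene probes tested, 161 (1.06%) differed between day 3 and day 2 with DOX, 83 (0.544%) higher and 78 (0.512%) lower at day 3, at a limma adjusted p under 0.05 (Benjamini-Hochberg over all probes). Of the 161, 138 differed by 2-fold or more. An unadjusted p under 0.05 was reached by 1299 probes. Most of these changes had the same sign in the control channel: 160 of 161. The control channel was read from the same spots of the same arrays. The limma estimate of the correlation between the 2 colours of a spot was 0.827. The 2 channels are thus not independent, and the share of equal signs over all probes is not given here. With each gene given by its brightest probe, 45 of 6021 genes were higher and 40 were lower, beside a median change of -0.005 on the log2 scale over all genes. Of the 161 probes, 17 were not well above background at day 2 only, 32 at day 3 only and 7 on both days. For those dim on all 3 arrays of a day, a fold is given as a lower bound. It is the mean of the bright day over the higher of the dim probe's own level and the lowest level past the signal-to-noise limit. This bound concerns the dim level alone and not the spread between samples or probes. Where the probe's own level was the higher, as for Ctla2a, Nrp, Mesp2 and Tbx3 below, it equals the fitted fold. The count was 71, 74 and 78 without day 2 replicate 1, 2 and 3, and 128, 164 and 115 without day 3 replicate 1, 2 and 3. The part of the array sets in these counts was not tested.

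**Figure D1:**
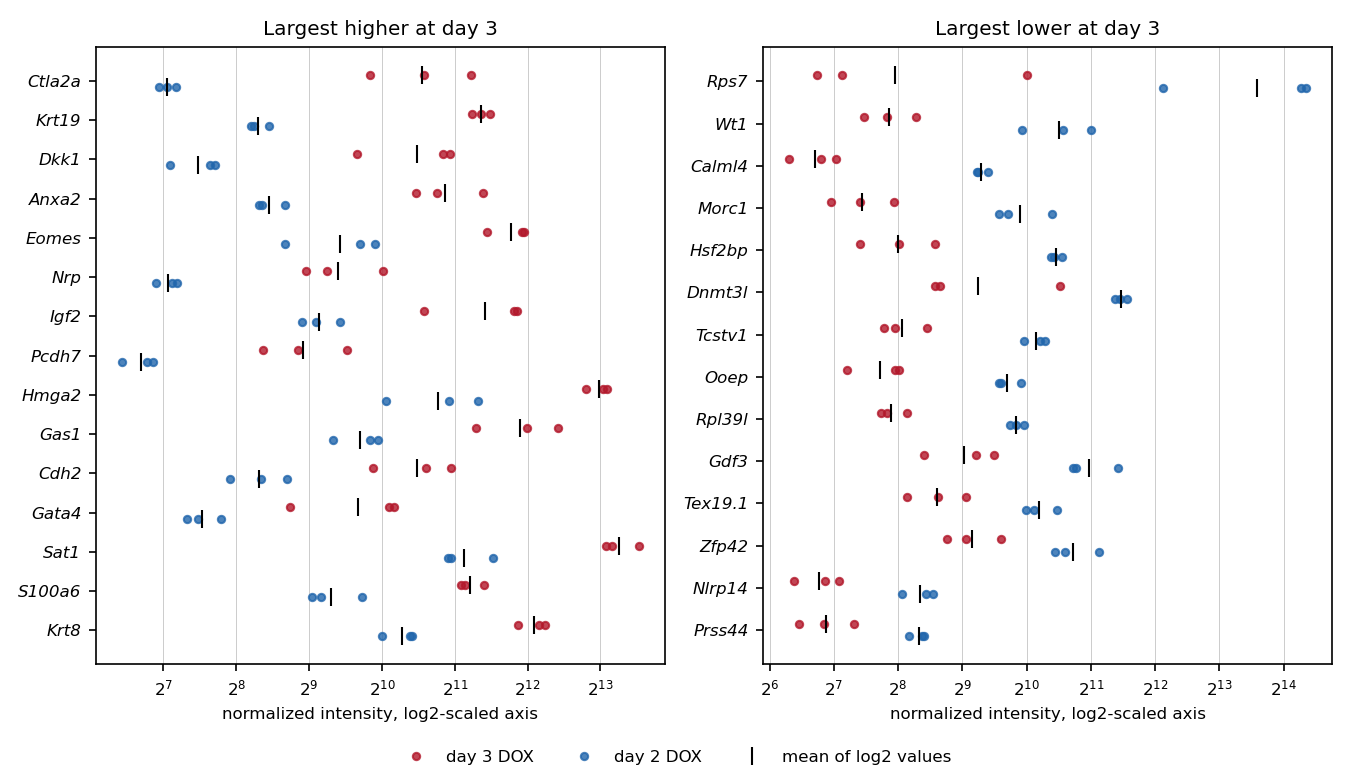
Normalized intensity (log2-scaled axis) of the 15 genes with the largest rise and 14 of the 15 with the largest fall in the red channel, for the 3 day 3 DOX samples (red, upper) and the 3 day 2 DOX samples (blue, lower). Points are samples and black ticks are means of log2 values. The 2 days do not overlap for any of these genes, which was a condition for naming them. Rps7 has the widest gap, with 1 day 3 sample at 1030 and the others at 140 and 106.

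Of the primitive streak and Wnt lists, Eomes, Dkk1, Mesp2 and Rspo3 rose. Eomes, a T-box transcription factor that starts mesoderm and endoderm formation, read 3970, 3866 and 2788 in the day 3 DOX samples, against 960, 407 and 834 in the day 2 DOX samples. Every day 3 sample lay above every day 2 sample, which was a condition for naming the largest rises. The rise was 5.09-fold (log2 2.35 ± 0.30, adjusted p = 0.00542), and the control channel gave a log2 change of 2.44 ± 0.30. Dkk1, a secreted Wnt antagonist, read 1830, 808 and 1953 at day 3, against 199, 209 and 136 at day 2, a 7.98-fold rise (log2 3.00 ± 0.32, adjusted p = 0.00269). Even its lowest day 3 sample was above all day 2 samples, as its naming also required. Rspo3, a secreted enhancer of Wnt signalling, read 2251, 886 and 2181 at day 3, against 439, 447 and 551 at day 2, a 3.43-fold rise (adjusted p = 0.0348). Its second day 3 replicate was the low one, as for Dkk1. Mesp2, a segmentation factor of paraxial mesoderm, read 342, 471 and 455 at day 3, against 173, 150 and 140 at day 2, where it was not well above background, and was at least 2.73-fold higher (adjusted p = 0.00428). A second Mesp2 probe gave 0.98 on the log2 scale (adjusted p = 0.177), and the other 4, dim on both days, gave -0.21 to 0.33 without passing. Rspo3 did not pass without day 3 replicate 1 or 3 or without any of the day 2 replicates (adjusted p up to 0.159). With all samples kept, it did not pass in 4 alternative settings (limma adjusted p up to 0.425).

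Of 39 named genes that changed, 23 had a RefSeq promoter entry that was searched, and not every chromosome was included. Among these only the upstream stretch of Eomes, shown here, held the P3 palindrome, 2 inverted TAAT cores with any 3 bases between them. Paired-type homeodomains, the class of Mixl1, bind it in vitro. The 250 bases before the start lie at chr9:118477939-118478188 on the plus strand of GRCm38.p6, with the match in capitals, on bases -111 to -101.
Eomes: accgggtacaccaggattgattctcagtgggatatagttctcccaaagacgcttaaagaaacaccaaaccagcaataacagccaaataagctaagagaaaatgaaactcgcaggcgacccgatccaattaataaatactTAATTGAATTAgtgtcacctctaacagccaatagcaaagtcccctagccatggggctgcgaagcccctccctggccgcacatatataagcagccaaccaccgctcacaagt
Over both strands, 0.463% of 32851 RefSeq promoter stretches of this length held the motif. This share is per stretch, while a named gene counted if any of its stretches held the motif, so the 2 are unlike units. Binding was not measured here, and the gain of Eomes was as large in the control channel as with DOX.

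Of the transcription factors of heart, endoderm and lateral mesoderm, Gata4, Gata3, Hand1 and Tbx3 rose. Gata5, Tbx20 and Gata2 gave 0.27, 0.09 and 0.24 on the log2 scale without passing. The Gata5 probe came from a clone noted as giving no PCR product, and Tbx20 was dim on both days. Gata4, a zinc finger factor of heart and endoderm, read 427, 1100 and 1144 in the day 3 DOX samples, against 160, 222 and 178 in the day 2 DOX samples. The first day 3 replicate was the lowest, and still above day 2. The rise was 4.39-fold (log2 2.13 ± 0.35, adjusted p = 0.0192), and a second Gata4 probe, dim on both days, gave 0.19 without passing. Gata3, a factor of trophoblast and early mesoderm, read 343, 538 and 547 at day 3, against 161, 185 and 170 at day 2, a 2.71-fold rise (adjusted p = 0.00801). Hand1, a basic helix-loop-helix factor of heart and extraembryonic mesoderm, read 197, 244 and 280 at day 3, against 98.5, 96.0 and 91.0 at day 2, where it was dim, and was at least 2.44-fold higher (adjusted p = 0.0229). Tbx3, a T-box factor expressed in naive cells and again in early mesoderm and endoderm, read 357, 282 and 316 at day 3, against 146, 126 and 114 at day 2, where it was dim, and was at least 2.48-fold higher (adjusted p = 0.00495). All 4 were low at day 2 and separate from it at day 3, which was a condition for naming Gata4 alone among them. Gata4 and Hand1 did not pass without day 3 replicate 2 or 3 or without any day 2 replicate (adjusted p up to 0.106 and 0.102), and Gata3 did not pass without day 2 replicate 1 (adjusted p = 0.0537).

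The named rises with roles in adhesion, growth or the cell surface are given next, with 1 protease inhibitor. Ctla2a, a cysteine protease inhibitor, had the largest rise of all named genes. It read 916, 1530 and 2384 in the day 3 DOX samples, against 132, 144 and 123 in the day 2 DOX samples, where it was not well above background. The rise was at least 11.3-fold by the bound for dim probes, which here equals the fitted fold (limma adjusted p = 0.00282). With 1 sample left out, its log2 change was 3.16 to 3.85, and a second Ctla2a probe rose by 2.90 on the log2 scale. Nrp is the files' name for neuropilin, which serves semaphorin and VEGF receptors as a partner. It read 496, 1035 and 605 at day 3, against 138, 119 and 146 at day 2, and was at least 5.06-fold higher (adjusted p = 0.00267). Pcdh7, a protocadherin, was at least 4.51-fold higher (adjusted p = 0.00532). Its second probe, from a clone noted as giving no PCR product and dim on both days, did not pass. Cdh2, N-cadherin, the cadherin that mesoderm takes up on leaving the epithelium, read 945, 1559 and 1980 at day 3, against 324, 414 and 242 at day 2, a 4.48-fold rise (adjusted p = 0.00947). The days did not overlap, as its naming required, and a dim second probe from a clone without PCR product gave 0.46 without passing. Igf2, an imprinted fetal growth factor, read 1524, 3714 and 3599 at day 3, against 544, 690 and 478 at day 2, a 4.84-fold rise (adjusted p = 0.00992). Both of its probes rose, the dimmer one by 1.83 on the log2 scale. Gas1, a membrane protein that modulates Hedgehog and growth arrest, rose 4.57-fold (adjusted p = 0.00723). Cdh2 and Igf2 did not pass without day 2 replicate 1 or 3 (adjusted p up to 0.0559 and 0.0612).

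Keratins and other epithelial, cytoskeletal or calcium-binding proteins were among the named rises. Krt19, a keratin of simple epithelia, read 2616, 2855 and 2419 in the day 3 DOX samples, against 295, 304 and 348 in the day 2 DOX samples. The 3 samples of each day lay close together, and the rise was 8.33-fold (log2 3.06 ± 0.41, adjusted p = 0.00724). Krt8, its filament partner in simple epithelia, read 4846, 4572 and 3752 at day 3, against 1023, 1369 and 1341 at day 2, a 3.54-fold rise (adjusted p = 0.00182). Of its 4 probes 3 rose, and the other did not pass (adjusted p = 0.428). The rising probe with the largest change (log2 2.61) was not well above background on any array of either day. Anxa2, a calcium-dependent membrane-binding protein, read 1733, 2680 and 1415 at day 3, against 327, 318 and 409 at day 2, a 5.37-fold rise (adjusted p = 0.00185). S100a6, a calcium-binding protein that is also in the fibroblast list, rose 3.74-fold (adjusted p = 0.0253) and Dsp, a desmosome protein, 3.37-fold (adjusted p = 0.0422). Lgals1, a galectin, rose 2.73-fold (adjusted p = 0.00701, with 2 of its 3 probes past the test), and Nes, the filament nestin of neural and other progenitors, 2.52-fold (adjusted p = 0.00442). S100a6 did not pass without day 3 replicate 1 or 3 or day 2 replicate 1 or 2 (adjusted p up to 0.131), and Dsp without any of the 6 samples (adjusted p up to 0.172).

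Hmga2 and Sat1 were among the brightest rises. Hmga2, an architectural chromatin protein of embryonic cells, read 7171, 8382 and 8712 in the day 3 DOX samples, against 1937, 2558 and 1068 in the day 2 DOX samples, a 4.63-fold rise (adjusted p = 0.00759). Of its other probes, one, from a clone noted as giving no PCR product, rose by 1.92 on the log2 scale and the dimmest gave 1.09 without passing. Sat1, the enzyme that acetylates polyamines for breakdown, read 9135, 8658 and 11820 at day 3, against 1911, 2945 and 1976 at day 2, a 4.38-fold rise (adjusted p = 0.00342). For both genes the lowest day 3 sample was well above the highest of day 2, and separate days were a condition for naming them.

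Several of the named falls were in genes known from germ cells, grouped here by their known roles and not by a list. Morc1, a factor that silences transposons in male germ cells, read 170, 125 and 244 in the day 3 DOX samples, against 760, 834 and 1352 in the day 2 DOX samples. The fall was 5.50-fold (log2 -2.46 ± 0.28, adjusted p = 0.00342). Its dimmer probe, not well above background on either day, gave -0.78 (adjusted p = 0.0568). Hsf2bp, which takes part in meiotic recombination, read 170, 382 and 258 at day 3, against 1498, 1382 and 1335 at day 2, a 5.49-fold fall (adjusted p = 0.00267). Tex19.1, which protects germ cells and placenta from transposons, read 282, 392 and 534 at day 3, against 1109, 1423 and 1022 at day 2, a 3.01-fold fall (adjusted p = 0.0192). None of these 3 genes overlapped between the days, which was a condition for naming them. Tex19.1 did not pass without any of the day 2 replicates (adjusted p up to 0.0934). With plain background subtraction Morc1, Hsf2bp and Tex19.1 did not pass (adjusted p = 0.0973, 0.0649 and 0.208), nor did Hsf2bp and Tex19.1 with the value table (adjusted p = 0.0817 and 0.0882).

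Ooep, Nlrp14 and Tcstv1 are known from the oocyte or the early embryo. Ooep, a component of the subcortical maternal complex of the oocyte, read 148, 257 and 248 in the day 3 DOX samples, against 762, 966 and 773 in the day 2 DOX samples, a 3.92-fold fall (adjusted p = 0.00342). Nlrp14, another oocyte gene, was not well above background at day 3 and was at least 2.83-fold lower (adjusted p = 0.00717). Tcstv1, named for its expression at the 2-cell stage, read 248, 350 and 220 at day 3, against 1242, 994 and 1182 at day 2, a 4.24-fold fall (adjusted p = 0.00173). The highest day 3 sample was below the lowest of day 2, as its naming required. Rpl39l, a ribosomal protein paralog of testis and stem cells, fell 3.86-fold (adjusted p = 0.00299). Prss44, a serine protease of testis, was not well above background at day 3 and was at least 2.65-fold lower (adjusted p = 0.0106), but it did not pass without day 2 replicate 1 or 2 (adjusted p up to 0.0670). Ooep did not pass with plain background subtraction or with the value table (adjusted p = 0.0831 and 0.149).

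Pluripotency genes were split. Zfp42, which encodes Rex1, a zinc finger protein of naive cells, read 535, 778 and 435 in the day 3 DOX samples, against 2230, 1544 and 1394 in the day 2 DOX samples. The fall was 2.98-fold (log2 -1.58 ± 0.25, adjusted p = 0.0167). Gdf3, a Nodal-related ligand of pluripotent cells, read 337, 590 and 723 at day 3, against 1689, 2743 and 1744 at day 2, a 3.83-fold fall (adjusted p = 0.0117). Dnmt3l, the cofactor of the de novo DNA methyltransferases, read 380, 1474 and 402 at day 3, against 2791, 2649 and 3035 at day 2, a 4.63-fold fall just past the threshold (adjusted p = 0.0495). Its second day 3 replicate was far above the others and still below day 2. Dppa3, a maternal factor of naive cells and germ cells, gave -1.36 on the log2 scale without passing (adjusted p = 0.0711), and Dppa5a, a gene of naive cells, -0.65 (adjusted p = 0.775). Without day 3 replicate 1 or 3 or day 2 replicate 1 or 2, neither Zfp42 nor Dnmt3l passed, and Dnmt3l did not pass without day 2 replicate 3 either (adjusted p up to 0.0746 and 0.193). The log2 change of Dnmt3l was -2.85 to -1.87 with 1 sample left out, and Gdf3 did not pass without day 2 replicate 2 (adjusted p = 0.0551). With all samples kept, Gdf3 did not pass in 1 alternative setting (limma adjusted p = 0.0737). Zfp42 did not pass in 3 of these settings and Dnmt3l in 4 (adjusted p up to 0.194 for Dnmt3l).

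The upstream stretches of Dnmt3l and Tex19.1, which fell, are shown with the E-box CACGTG and with TCCCGC, a core that E2F factors bind, both drawn from knowledge of germ cell gene promoters. Dnmt3l was the single named gene with CACGTG, which 6.02% of all promoter stretches held on either strand, and its match begins at base -44. TCCCGC or its reverse complement stood in 7 of the 23 named genes, 4 of 15 that rose and 3 of 8 that fell, against 16.9% of all stretches. The stretch of Dnmt3l lies at chr10:78049592-78049841 and that of Tex19.1 at chr11:121145893-121146142, both on the plus strand of GRCm38.p6, with matches in capitals.
Dnmt3l: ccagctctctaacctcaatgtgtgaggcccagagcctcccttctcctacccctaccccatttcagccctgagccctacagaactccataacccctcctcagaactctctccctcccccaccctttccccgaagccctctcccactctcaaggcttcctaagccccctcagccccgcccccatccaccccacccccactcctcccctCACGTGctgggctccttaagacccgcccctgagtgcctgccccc
Tex19.1: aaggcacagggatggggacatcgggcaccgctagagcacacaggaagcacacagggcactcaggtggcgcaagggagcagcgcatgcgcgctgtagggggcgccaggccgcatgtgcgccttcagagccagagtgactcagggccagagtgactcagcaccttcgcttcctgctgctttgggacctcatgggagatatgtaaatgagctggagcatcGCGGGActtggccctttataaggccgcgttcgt
AGATAA, a core that GATA factors bind, was searched as well and stood in 2 of the 23, Ctla2a and Krt8, against 9.99% of all stretches. A named gene counted if any of its stretches held the motif, while the shares are per stretch searched, so they cannot be compared directly. The matches describe letters and not sites in use.

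The remaining large falls had mixed functions. Wt1, a zinc finger factor of kidney and gonad, read 178, 226 and 312 in the day 3 DOX samples, against 2041, 978 and 1516 in the day 2 DOX samples, a 6.22-fold fall (adjusted p = 0.00282). Calml4, a calmodulin-like protein, was not well above background at day 3 and was at least 5.60-fold lower (adjusted p = 0.000481). Pecam1, an adhesion molecule of endothelium that stem cells also express, fell by 0.99 on the log2 scale (adjusted p = 0.0401), and passed without day 3 replicate 2 but without none of the other 5 samples (adjusted p up to 0.160).

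Rps7, a protein of the small ribosomal subunit, had the largest change among the named genes that passed the test. It read 140, 1030 and 106 in the day 3 DOX samples, against 19810, 20880 and 4466 in the day 2 DOX samples, a log2 change of -5.63 ± 0.83 (adjusted p = 0.0114). The same spot read 100, 817 and 96.3 in the day 3 control samples, against 20480, 21840 and 4134 in the day 2 control samples, and 107, 166 and 180 in the day 4 DOX samples. It thus moved alike in both colours of the arrays of a day. Rps7 had a single probe, and none of the other 68 cytosolic ribosomal protein genes measured passed the test. It did not pass without day 2 replicate 1 or 2 (adjusted p up to 0.0722), and its log2 change was -6.65 to -5.02 with 1 sample left out. Ndufb7, a subunit of respiratory complex I, was looked at after its values were seen and gave a log2 change of 5.97 from a level at day 2 that was dim, which did not pass (adjusted p = 0.0571), with 5.78 in the control channel. Whether these 2 spots report their genes was not tested.

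**Figure D2:**
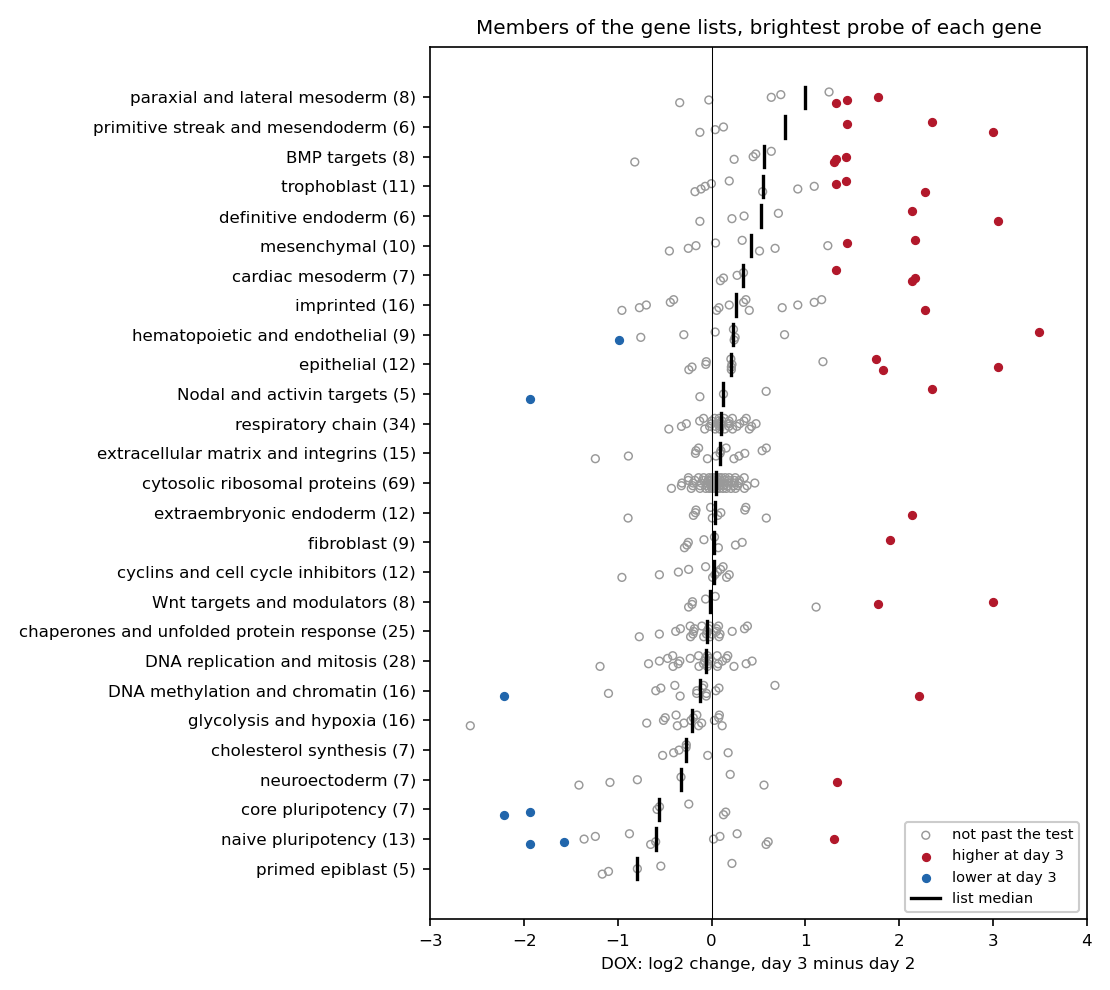
Log2 change with DOX, day 3 minus day 2, of each measured member of the gene lists with at least 5 members (number in brackets), by brightest probe. Filled red and blue points passed the test, open points did not, and black bars are list medians; Rps7 (-5.63) and Ndufb7 (5.97) lie outside the axis. Lists of paraxial and lateral mesoderm, the streak and BMP targets stand at the top, with medians of 0.99, 0.79 and 0.55, and pluripotency and epiblast lists at the bottom.

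By list, 3 genes each of the paraxial and lateral mesoderm, streak, BMP and cardiac lists were higher and most of their measured members did not pass, except in the streak list with 3 of 6. The pluripotency and epiblast lists had medians below 0, beside a median of -0.005 and 0.747% higher and 0.664% lower calls over all genes. The lists share members. Dimness did not enter the test, though a gene near background at day 2 has little room to fall. Of 8 measured paraxial and lateral mesoderm genes, 3 were higher, 0 lower and 5 not called (median 0.99). Pdgfra, a growth factor receptor of mesoderm, gave 1.25 there but was not well above background on either day. Of 6 primitive streak genes, 3 were higher (median 0.79), while Cer1, a secreted Nodal antagonist, and Tdgf1, the Nodal co-receptor, gave -0.13 and 0.13 without passing. Of 8 BMP targets, 3 were higher (Gata3, Hand1 and Tbx3, median 0.55). The inhibitors of helix-loop-helix factors Id2, Id3 and Id4 gave -0.82, 0.47 and 0.44 without passing. Trophoblast genes had 3 of 11 higher (Igf2, Gata3 and Hand1, median 0.54), definitive endoderm genes 2 of 6 (Krt19 and Gata4, median 0.53), mesenchymal genes 2 of 10 (Cdh2 and Lgals1, median 0.42) and cardiac mesoderm genes 3 of 7 (Cdh2, Gata4 and Hand1, median 0.34). Vim, the filament vimentin of mesenchymal cells, gave 1.24 without passing (adjusted p = 0.141). None of these lists had a lower call.

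Epithelial genes had 3 of 12 higher (Krt19, Krt8 and Dsp, median 0.21). Krt18, the usual partner of Krt8, gave 1.19 and missed the threshold (adjusted p = 0.0562). Wnt targets and modulators had 2 of 8 higher (Dkk1 and Rspo3, median -0.01), and Apcdd1, another Wnt antagonist, gave 1.11 without passing. Naive pluripotency genes had 1 of 13 higher (Tbx3) and 2 lower (Gdf3 and Zfp42, median -0.60), and core pluripotency genes 0 of 7 higher and 2 lower (Dnmt3l and Gdf3, median -0.56). The 5 primed epiblast genes had no call and a median of -0.79, with the de novo methyltransferases Dnmt3b and Dnmt3a at -1.10 and -0.54 and the homeobox gene Otx2 at -0.79. Nodal and activin targets had Eomes higher and Gdf3 lower of 5, hematopoietic and endothelial genes Ctla2a higher and Pecam1 lower of 9, and imprinted genes Igf2 higher of 16. Chromatin genes had Hmga2 higher and Dnmt3l lower of 16, neuroectoderm genes Nes higher of 7, extraembryonic endoderm genes Gata4 higher of 12 and fibroblast genes S100a6 higher of 9.

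Housekeeping groups other than the ribosomal proteins had no calls. None of 34 respiratory chain, 28 replication and mitosis, 25 chaperone, 16 glycolysis and hypoxia, 15 matrix and integrin, 12 cyclin and cell cycle inhibitor and 7 cholesterol synthesis genes passed in either direction. Their medians lay between -0.27 and 0.10. The lists of Hox and Cdx, retinoic acid, and p53 genes, with 3, 4 and 4 measured members, had none either.

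Whether the change with DOX differed from that in control was tested on the ratio of the 2 channels of each array, which shares the spot and so has a smaller spread. Of 15246 probes, 489 (3.21%) differed, 197 (1.29%) above 0, that is, with a higher change with DOX, and 292 (1.92%) below 0. Of the 161 probes that changed with DOX, 48 also differed here. Among the 15 largest rises, 10 differed, and 6 passed in the control channel. The 161 probes and these 15 genes were chosen by the red channel, which also enters the difference. The choice thus favours a difference in the direction of the change. Nrp read 123, 103 and 131 in the day 3 control samples and 122, 123 and 114 in the day 2 control samples, not well above background throughout. Its fitted difference of 2.36 ± 0.25 (log2, adjusted p = 8.30e-05) thus rests on values near background and has no place in an order. Ctla2a rose in control too, by 1.15 on the log2 scale, and the difference was 2.35 ± 0.24 (adjusted p = 5.53e-05). Dkk1 read 347, 162 and 286 in the day 3 control samples, against 166, 181 and 119 in the day 2 control samples, with a difference of 2.27 ± 0.15 (adjusted p = 2.15e-06). Gata4 and Cdh2 gave 0.27 and 0.31 in control, neither past the test, with differences of 1.87 ± 0.16 and 1.85 ± 0.15 (adjusted p = 2.20e-05 and 8.63e-06). The remaining rises with a difference were Igf2 (1.48), Pcdh7 (1.27), Gata3 (1.27), Hand1 (1.02), Mesp2 (0.99), Gas1 (0.98), Tbx3 (0.94), Rspo3 (0.86), Sat1 (0.77), Hmga2 (0.59) and Dsp (0.54). Eomes and Anxa2 showed none, with differences of -0.10 ± 0.15 and 0.02 ± 0.12 (adjusted p = 0.817 and 0.963). Hand1, like Nrp, was dim in control on both days and with DOX at day 2, so its difference has no place in an order either. Ctla2a, Pcdh7 and Tbx3 were dim at day 2 in both channels, and Mesp2 at day 2 with DOX, which limits the size of their differences too.

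**Figure D3:**
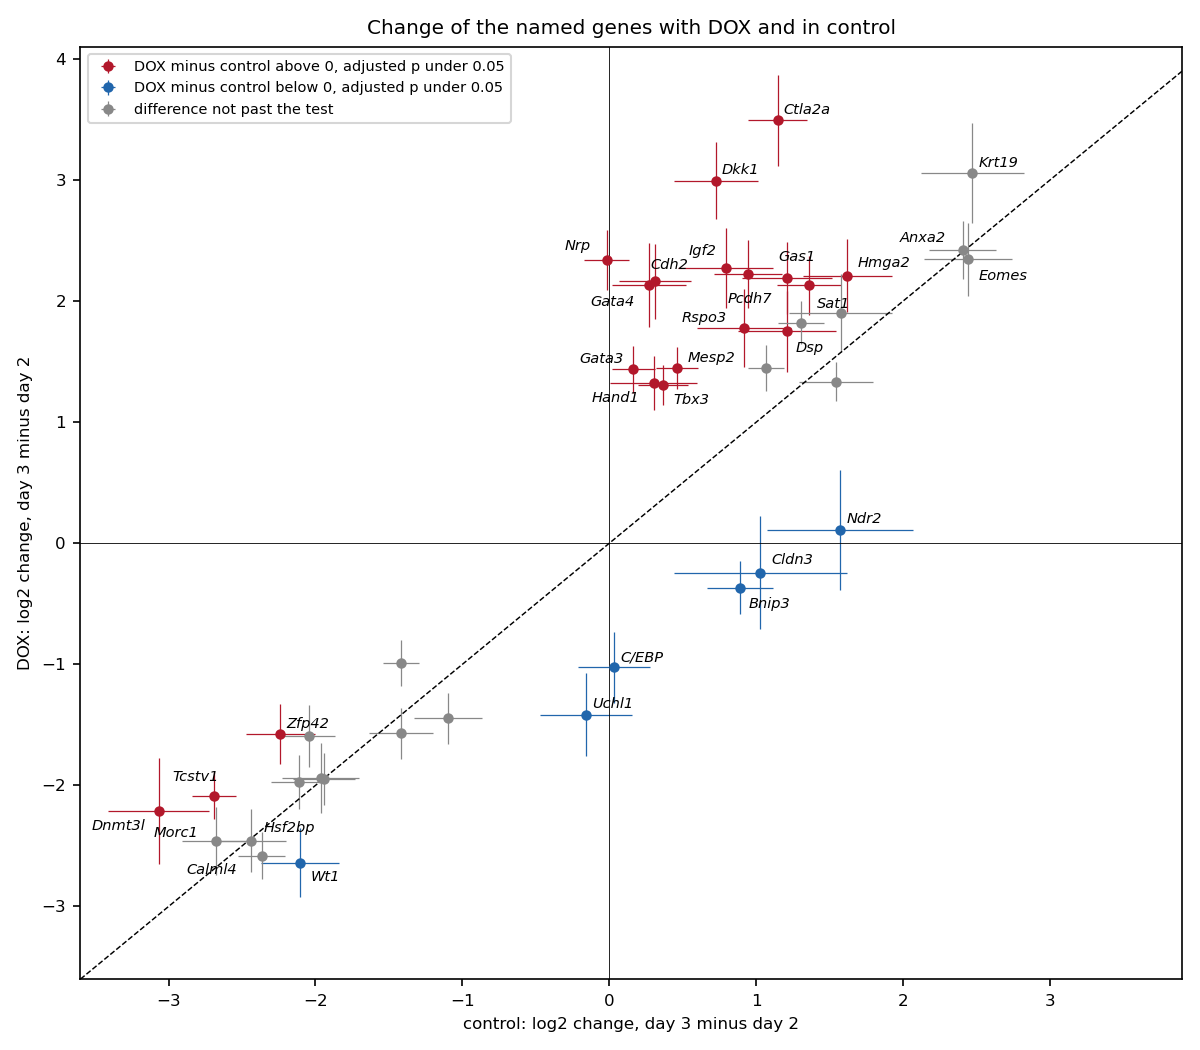
Log2 change, day 3 minus day 2, with DOX (vertical) against control (horizontal) for the named genes drawn here (Rps7 lies outside the axes), with limma standard errors as bars and equal change as the dashed line. Colour marks the test of the difference (red above 0, blue below 0, grey not past it). Eomes and Anxa2 lie on the line, Nrp, Gata4 and Cdh2 lie far above it with control changes of -0.02, 0.27 and 0.31, and most falls lie along the line.

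The falls were mostly shared with control, which was read from the same spots of the same arrays. Of the 15 largest, 14 passed in the control channel as well, and 11 showed no difference past the test. Morc1, Hsf2bp and Rpl39l changed by -2.46, -2.46 and -1.95 on the log2 scale with DOX, against -2.68, -2.44 and -1.94 in control. Dnmt3l, Zfp42 and Tcstv1 fell less with DOX. Their control changes were -3.07, -2.24 and -2.69, and the differences 0.86 ± 0.14 (adjusted p = 0.00207), 0.66 ± 0.11 (adjusted p = 0.00262) and 0.61 ± 0.14 (adjusted p = 0.0284). Wt1 fell more with DOX, with a difference of -0.53 ± 0.12 (adjusted p = 0.0240). The difference of Tcstv1 passed without day 3 array 3 but without none of the other 5 arrays (adjusted p up to 0.134), and that of Wt1 without day 3 array 3 or day 2 array 3 but without none of the other 4 (adjusted p up to 0.111). Dsp did not keep its difference without day 3 array 2 or any day 2 array, Hand1 without day 3 array 2 and Hmga2 without day 2 array 3 (adjusted p up to 0.121, 0.0523 and 0.0646).

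The 5 largest differences below 0 were in genes whose own change with DOX did not pass. Uchl1, a ubiquitin hydrolase of neurons and germ cells, read 1428, 1742 and 1800 in the day 3 DOX samples, against 4452, 4661 and 4097 in the day 2 DOX samples, without overlap (adjusted p = 0.113). In control it read 3866, 5295 and 5733 at day 3, against 5724, 6023 and 4710 at day 2, and the difference was -1.26 ± 0.12 (adjusted p = 3.71e-05). A second Uchl1 probe, from a clone noted as questionable, fell by 1.37 with DOX (adjusted p = 0.0207). Ndr2, named as N-myc downstream regulated, gave 0.11 with DOX and 1.57 in control, a difference of -1.46 ± 0.14 (adjusted p = 3.71e-05). Cldn3, a tight junction claudin, gave -0.24 with DOX and 1.03 in control, a difference of -1.27 ± 0.15 (adjusted p = 0.000188). Bnip3, a mitochondrial protein induced by hypoxia, gave -0.37 with DOX and 0.89 in control, a difference of -1.26 ± 0.14 (adjusted p = 0.000104), from a clone noted as giving no PCR product. A clone named as similar to CCAAT/enhancer binding protein (C/EBP), gamma, gave -1.02 with DOX and 0.03 in control, a difference of -1.06 ± 0.13 (adjusted p = 0.000178). In the glycolysis and hypoxia list 7 of 16 members had a difference below 0 and 0 above it, beside 160 of 6021 genes below 0 and 102 above. Besides Bnip3 these include the phosphofructokinase Pfkl (-0.68) and the glucose transporter Slc2a1 (-0.85), both picked as examples after their values were seen. The paraxial and lateral mesoderm list had 6 of 8 above 0 and 1 below, trophoblast genes 6 of 11 above and 0 below, and BMP targets 5 of 8 above and 0 below.

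**Figure D4:**
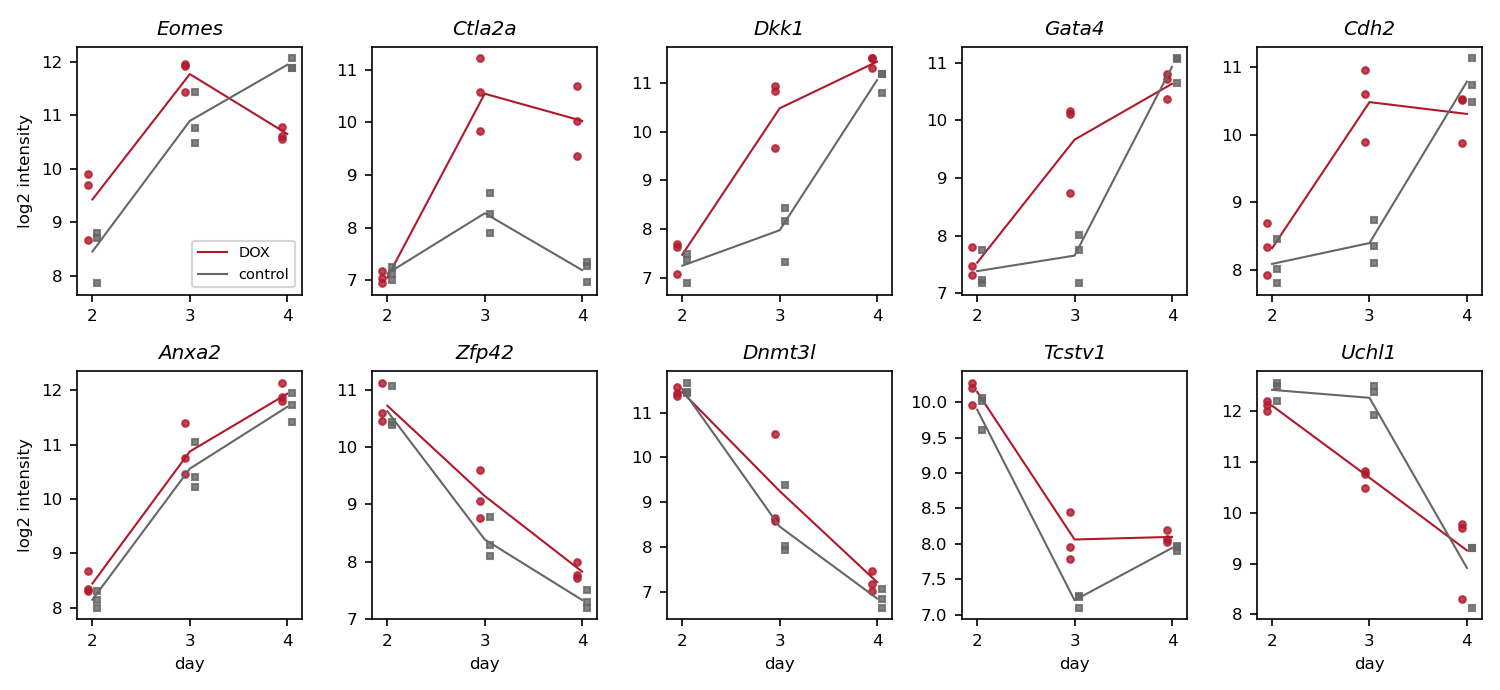
Normalized log2 intensity at day 2, 3 and 4 for 10 named genes in the DOX (red circles) and control (grey squares) samples. Points are samples and lines join the means of 3 samples. Gata4, Cdh2 and Dkk1 reach day 4 levels in control close to those with DOX, while Ctla2a does not, and Eomes with DOX is lower at day 4 than at day 3.

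The levels at day 4, on their own 3 arrays, are given beside those of the earlier days as a description. Eomes read 407 to 960 at day 2, 2788 to 3970 at day 3 and 1502 to 1771 at day 4 with DOX, and 231 to 447, 1438 to 2758 and 3774 to 4294 on these days in control. Its level was thus highest at day 3 with DOX and at day 4 in control. Igf2 read 478 to 690, 1524 to 3714 and 13690 to 19660 on these days, and Hand1 91.0 to 98.5, 197 to 280 and 1876 to 3225. Nrp went on up as well, at 119 to 146, 496 to 1035 and 3939 to 4140. Ctla2a read 123 to 144, 916 to 2384 and 657 to 1655, so its day 3 and day 4 samples overlapped. Nes read 814 to 905, 1815 to 2482 and 483 to 560, with its highest level at day 3. Of the falls, Gdf3 read 1689 to 2743, 337 to 723 and 82.5 to 94.4, and Dnmt3l 2649 to 3035, 380 to 1474 and 130 to 175. Tcstv1 read 994 to 1242, 220 to 350 and 262 to 292, with its day 4 samples inside the day 3 range.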

How the data were processed

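Per the file headers, the authors deposited for each day a linear intensity of every spot (median foreground minus background) in a red and a green channel, with spot flags and, as a score, its signal-to-noise ratio. The deposited value table equals the authors' scaled red channel for DOX and green channel for control within 1e-06 in all 18 samples, but was scaled per day and served as an alternative. Spots flagged at -75 or lower stayed out; limma 3.58.1 under R 4.3.3 then modelled the background by normexp (offset 50), and loess within and Aquantile between all 9 arrays gave log2 single-channel values. One linear model of the 9 DOX samples with a term per day (6 residual degrees of freedom) gave day 3 minus day 2 with empirical Bayes moderation; the log2 ratios gave the difference from control. Tests were two-sided and adjusted by Benjamini-Hochberg over 15246 probes at 0.05. Each gene is its brightest probe. Named are the 15 largest changes each way past the test, without overlap and at the signal-to-noise limit of 1.4 on all arrays of a day, up to 4 called members per list, and the 5 largest differences each way; RIKEN, EST and predicted names were passed over. 1 gene that these rules name is counted in the totals but is not reported here. Symbols named 9301 probes: 4039 were current, 3930 were renewed from RefSeq and 1332 stayed as deposited. The members, the 30 lists and the rules were chosen with earlier results of these data known.

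Simulated arrays were made from these levels and spread, with 15246 probes fitted and the changed probes drawn only from those above the median level. The test of day 3 over day 2 recovered 0 of 67 changed 1.5-fold, 9 of 67 changed 2-fold and 47 of 66 changed 4-fold. Changes under about 4-fold were thus often missed among such probes, and recovery among dimmer probes was not simulated. The test of the difference recovered 41 of 67, 65 of 67 and 66 of 66. Same-numbered samples of the days did not deviate together (r = 0.035, -0.063 and -0.322 for replicates 1, 2 and 3). Samples of unlike number gave r of -0.244 to 0.335. With 3 samples a day these values cannot settle whether the numbers pair the samples, and the main model used no pairing. Alternatives were other normalizations, background settings, filters, models, the green channel and samples left out.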

Additional observations from a re-analysis of the deposited data

Results flagged for a closer look

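For 25 named genes the change from day 2 to day 3 with DOX differed from that in control by the test of the difference itself (limma on log2 ratios, adjusted p under 0.05). The log2 differences above 0 were 2.36 for Nrp, 2.35 for Ctla2a, 2.27 for Dkk1, 1.87 for Gata4, 1.85 for Cdh2, 1.48 for Igf2, 1.27 for Pcdh7, 1.27 for Gata3, 1.02 for Hand1 and 0.986 for Mesp2. Smaller ones above 0 were 0.981 for Gas1, 0.943 for Tbx3, 0.860 for Rspo3, 0.856 for Dnmt3l, 0.771 for Sat1, 0.663 for Zfp42, 0.608 for Tcstv1, 0.588 for Hmga2 and 0.541 for Dsp. Below 0 were Wt1 at -0.533, the C/EBP clone at -1.06, Bnip3 at -1.26, Uchl1 at -1.26, Cldn3 at -1.27 and Ndr2 at -1.46. With 1 array left out, 20 of the 25 passed each time, and Wt1, Tcstv1, Dsp, Hand1 and Hmga2 did not. All signs turn if DOX was in the green channel, as the dye labels have it. Genes were named in part for this difference, so the list is a selection. Nrp and Hand1 were dim in control on both days and with DOX at day 2, so their sizes have no place in an order.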

How the results depend on the processing

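The 161 probes called (83 higher, 78 lower) became 27 (18 and 9) among 9611 probes of the value table, 98 (54 and 44) with only the 6 DOX samples of the 2 days and 293 (156 and 137) with the separate-channel model. They became 76 (52 and 24) among probes above the median intensity, and 114 (44 and 70) with the green channel taken as DOX. Leaving out 1 sample gave 71 to 164 calls, 35 to 78 higher and 34 to 86 lower. The share of higher calls was 51.6%, against 66.7% with the value table, 68.4% above the median intensity and 38.6% in the green channel. With the value table the median change of all probes was -0.102 on the log2 scale. The replicate block gave 121 calls (68 and 53), and 415 for the difference from control. It kept 113 of the 161 calls, and of the named genes Dnmt3l (adjusted p = 0.0660), Hand1 (0.0602) and Pecam1 (0.0571) did not pass with it. Whether the numbers pair the samples was not settled, and the cause of the fewer calls was not tested. Median scaling, quantile normalization of the red channel alone, print-tip loess, plain background, a normexp offset of 10 and the signal-to-noise filter gave 131 to 187 calls, and Rquantile, added after seeing the data, 171. In each of these alternatives the calls made in the first place that could be tested kept their sign, apart from 1 of 161 in the green channel. Of 44 genes named, 12 lost the call with plain background, 12 of 31 tested with the value table, 15 in the green channel and 6 with only the 6 samples. Median scaling and the signal-to-noise filter ended the call of 1 each, Pecam1. Of 39 called genes named, 23 passed with any 1 of the 6 samples left out. Settings that kept all 6 samples, the green channel among them, also ended calls. Pecam1 lost its call in 5 of them, Dnmt3l and Rspo3 in 4, and Zfp42, S100a6 and Dsp in 3. The 489 calls for the difference became 743 with print-tip loess, 451 with plain background, 377 with only the 6 arrays, and 238 to 538 with 1 array left out. In the difference, 3 of 489 calls turned sign with plain background. Changes with DOX that turned were not called, save Nrp. In the green channel Nrp was at -0.0179, Cldn3 at 1.03, Bnip3 at 0.893 and C/EBP at 0.0321. Ndr2 turned to -0.0276 with median scaling and ran from -0.435 to 0.453, and Cldn3 from -0.677 to 0.205, with 1 sample left out. Differences from control that were not called and turned were those of Anxa2 (-0.00264 with print-tip loess, -0.0891 with plain background) and Rpl39l (0.157 with plain background). With 1 array left out, differences ran from -0.0228 to 0.0537 for Anxa2, -0.233 to 0.0788 for Eomes, -0.0873 to 0.0380 for Hsf2bp, -0.0914 to 0.0711 for Rpl39l and -0.000935 to 0.0655 for Gdf3. The cause was not tested, beyond the fewer probes or samples that some settings hold. Dim probes limit what their folds can show.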
